A study of Homo sapiens with 9 samples.

Results

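Sprouty, SPRED and DUSP proteins are the inhibitors that ERK signalling switches on against itself. The sites described here are the EGR1 ChIP-seq peaks whose summits lay in windows around 8 of their genes: SPRY1, SPRY2, SPRY4, SPRED1, SPRED2, DUSP4, DUSP5 and DUSP6. The windows held 17 of the 12340 peaks listed for induced cells given clobetasol and 22 of the 16285 listed for induced cells without it, and none of the 8 windows was without a peak. The windows were fixed in hg19 coordinates, were 50 to 170 kb wide and covered 650.0 kb together. The genes and windows were selected on the peaks of both lists, with their folds and q values known, so the presence and the strength of these peaks are a description.

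The cells were BJ-hTert-B-RAF-V600E, a line of human fibroblasts immortalised with telomerase in which doxycycline switches on the oncoprotein BRAF V600E. Induced cells with clobetasol had received doxycycline at 1000 ng/mL and clobetasol, a potent glucocorticoid, at 2 nM for 24 h. Induced cells without it had received doxycycline at 1000 ng/mL and DMSO, and proliferating cells had received ethanol and DMSO, for the same 24 h. Each group had 3 libraries, precipitated with the anti-EGR1 antibody sc-189X. Titles name DMSO for every group, which leaves unclear whether clobetasol cells were given it as well. All groups carry the same inducible construct. The labels state neither whether the line is 1 clone nor whether replicate libraries are of separate cultures.

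Both peak lists compare pools: the authors called peaks of the 3 pooled libraries of a treated group against the 3 pooled proliferating libraries. The lists hold no value per library, so no difference below could be set against a spread between replicates, and no p-value is given. The number of fragments over each summit was recovered from the authors' deposited fold and p-value. Fragments of the clobetasol pool were divided by 1.21, its depth relative to the induced pool, and are called depth-scaled. The level in proliferating cells is given as the control level, the local proliferating signal scaled to the depth of the treated pool. Intervals on ratios are exact 95% intervals that cover counting error only. Gene expression was not measured in these files, and no annotation of hg19 was used, so a window's name gives the neighbourhood of a peak and not its target. Other genes of these families, such as SPRY3, SPRED3 and DUSP1, have no window and were not analysed here.

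Receptor tyrosine kinases activate ERK through RAS, RAF and MEK, and active ERK induces genes that restrain the same route. Sprouty proteins act between receptor and RAF, SPRED proteins bring the RAS inactivator neurofibromin to the membrane, and the DUSP members described here are phosphatases that remove phosphate from MAP kinases. DUSP6 acts on ERK in the cytoplasm, whereas DUSP4 and DUSP5 are nuclear. EGR1 is an immediate early transcription factor that ERK itself induces, and it binds GC-rich DNA through zinc fingers.

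The promoters of 6 of the 8 genes were in the RefSeq table used here, with 10 transcription starts in all. The letters GCGNGGGCG, the core of the textbook EGR1 site with N for any base, were searched on both strands in the 250 bases before each start. A match was found at 3 of the 10 starts, 1 each of SPRY1, SPRY2 and SPRY4, and at 8.41% of the 35116 starts in the table. These 3 promoters are shown because they carry a match to the letters searched, in which N may be any base. They are written 5′ to 3′ along the gene, with matches on either strand in capitals.
SPRY1 promoter, GRCh38.p14 chr4:123398136-123398385, plus strand: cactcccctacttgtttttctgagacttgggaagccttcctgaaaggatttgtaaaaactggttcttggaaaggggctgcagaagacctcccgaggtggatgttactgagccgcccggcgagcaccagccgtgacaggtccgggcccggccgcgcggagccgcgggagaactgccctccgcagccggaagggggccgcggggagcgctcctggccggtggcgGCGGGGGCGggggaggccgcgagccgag
SPRY2 promoter, GRCh38.p14 chr13:80341127-80341376, minus strand: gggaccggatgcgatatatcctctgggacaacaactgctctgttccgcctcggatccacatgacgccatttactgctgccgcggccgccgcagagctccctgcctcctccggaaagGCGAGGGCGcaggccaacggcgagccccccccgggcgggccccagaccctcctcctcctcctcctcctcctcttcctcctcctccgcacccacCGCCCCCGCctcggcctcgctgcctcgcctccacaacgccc
SPRY4 promoter, GRCh38.p14 chr5:142324248-142324497, minus strand: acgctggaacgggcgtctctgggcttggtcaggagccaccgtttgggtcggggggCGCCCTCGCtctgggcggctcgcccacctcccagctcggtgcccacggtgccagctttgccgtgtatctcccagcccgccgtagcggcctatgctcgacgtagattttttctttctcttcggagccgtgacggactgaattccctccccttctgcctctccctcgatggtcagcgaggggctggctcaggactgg
The SPRY2 promoter held 2 matches, at 134 to 126 and at 41 to 33 bases before the start, the second on the opposite strand. In the SPRY1 promoter the match lay at 28 to 20 bases, and in the SPRY4 promoter at 195 to 187 bases on the opposite strand. For SPRY1 and SPRY4 the start shown lies inside the annotated gene, downstream of its 5′ end in the RefSeq gene table. No match overlaps another. The table is of another build than the peaks, so these letters could not be placed under a peak, and a match is not a binding site.

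Every window held at least 1 site listed both with and without clobetasol. Counting a pair of overlapping peaks as 1 site, the windows held 23 sites, of which 16 were in both lists, 1 in the clobetasol list only and 6 in the induced list only. Sites are lettered within each window in order of position. At all 16 sites in both lists the depth-scaled number of fragments was lower with clobetasol, as it was at 87.4% of the 10429 shared sites of the whole list. The fold over proliferating cells was lower with clobetasol at all 16 too, against 84.4% of all shared sites. The fragment comparison depends on the depth scaling. Without it, sites c of SPRY4, a of SPRED2, b of DUSP4 and a of DUSP5 had more fragments with clobetasol.

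**Figure D1:**
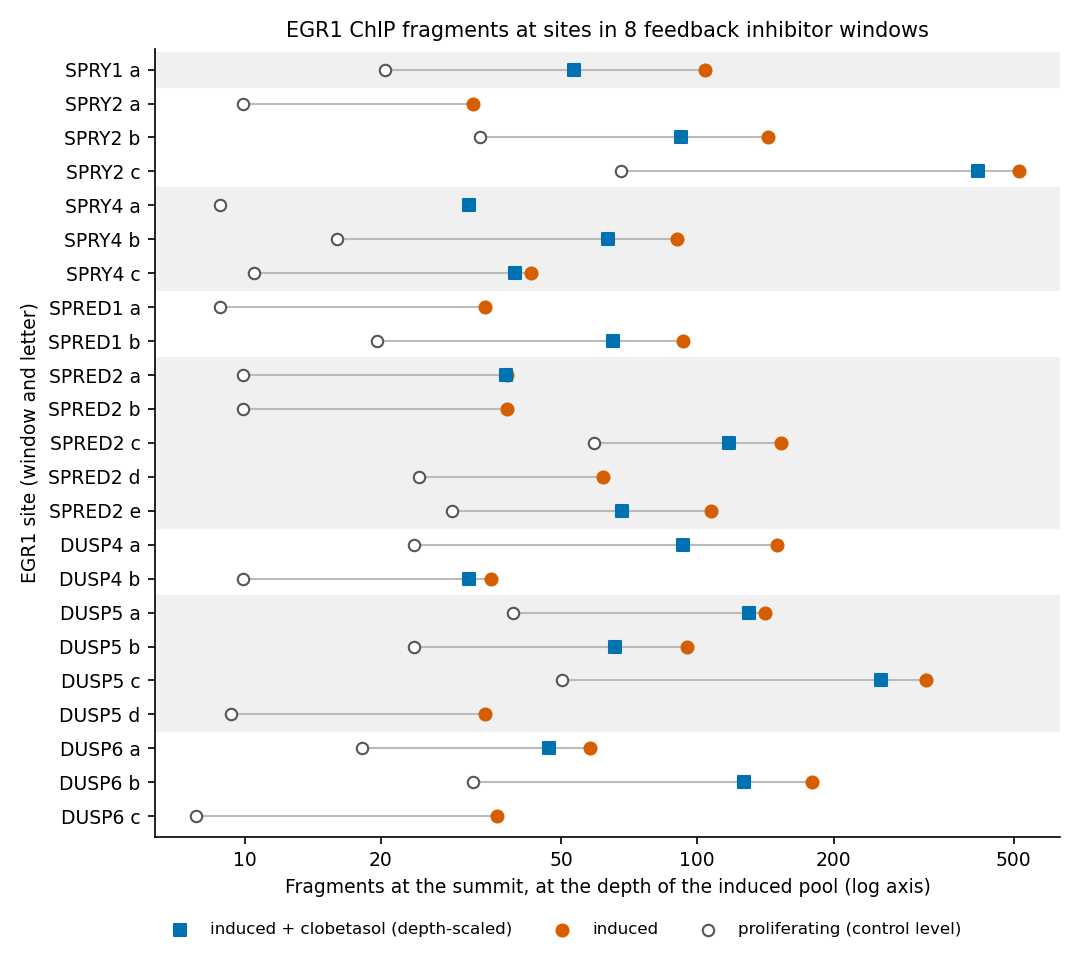
Fragments over the summit of each of the 23 EGR1 sites, on a log axis at the depth of the induced pool: squares for induced cells with clobetasol, filled circles for induced cells and open circles for the control level from proliferating cells. A site without a square or without a filled circle had no peak in that list. Site c of SPRY2 stands furthest to the right, with 417 depth-scaled fragments with clobetasol, 513 in induced cells and a control level of 67.8.

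The Sprouty windows held the strongest site. Site c of SPRY2, chr13:80915006-80915574, ranked 13 of 12340 by q in the clobetasol list and 11 of 16285 in the induced list. SPRY2 encodes a widely expressed Sprouty inhibitor of receptor tyrosine kinase signalling. The clobetasol pool had 506 fragments there (417 depth-scaled), the induced pool had 513, and the control level was 67.8, which corresponds to 123 proliferating fragments. This control level was 10.5 times the floor of the list, its lowest control level. A raised control level can come from EGR1 signal in proliferating cells or from other background, which cannot be told apart without an input. The authors' fold was 6.44 with clobetasol and 7.47 without it, above 99.3% and 99.0% of the peaks of each list. The ratio of depth-scaled fragments, clobetasol over induced, was 0.812 (0.717 to 0.920), so the site kept most of its fragments.

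The SPRY2 window held 2 more sites on the same side. Site b, chr13:80913031-80913505, lay 2023 bp from site c between summits. It had 112 fragments with clobetasol (92.2 depth-scaled), 143 in induced cells and a control level of 33.1. Its ratio was 0.645 (0.499 to 0.831), lower than that of site c, although the intervals overlap. Site a, chr13:80907878-80908550, was a weak site 7015 bp from site c with 32 fragments and a fold of 3.02 in induced cells, and had no clobetasol peak. Its −log10 q of 5.25 was close to the lowest in the induced list, 5.00.

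SPRY1, another Sprouty inhibitor, had a single site with the lowest ratio of all 16. At chr4:124319265-124319744 there were 65 fragments with clobetasol (53.5 depth-scaled), 104 in induced cells and a control level of 20.4. The fold was 2.56 with clobetasol and 4.90 without it. The ratio was 0.514 (0.371 to 0.708), and 1.31% of all shared sites had a ratio as low or lower. After subtraction of the control level, 0.396 of the induced excess remained with clobetasol, the lowest of the 16. The median of this value was 0.642 over the 16 sites and 0.734 over all shared sites. The proliferating pool had 37 fragments at the summits of both lists.

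The SPRY4 window was the only one of the 8 with a site listed only with clobetasol. SPRY4 encodes a Sprouty protein that restrains growth factor signalling to ERK. Site b, chr5:141673001-141673527, was its strongest, with 77 fragments with clobetasol (63.4 depth-scaled), 90 in induced cells and a control level of 16.0. Its fold was 3.82 with clobetasol and 5.35 without it, and its ratio was 0.704 (0.513 to 0.965). Site c, chr5:141722188-141722584, lay 49208 bp away and had 48 fragments with clobetasol (39.5 depth-scaled), 43 in induced cells and a control level of 10.5. At a ratio of 0.919 (0.596 to 1.42), no difference was detectable there at this depth. Site a, chr5:141670159-141670530, had 38 fragments and a fold of 3.33 with clobetasol. It had no induced peak, and its −log10 q of 7.39 placed it 10210 of 12340 in its list.

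**Figure D2:**
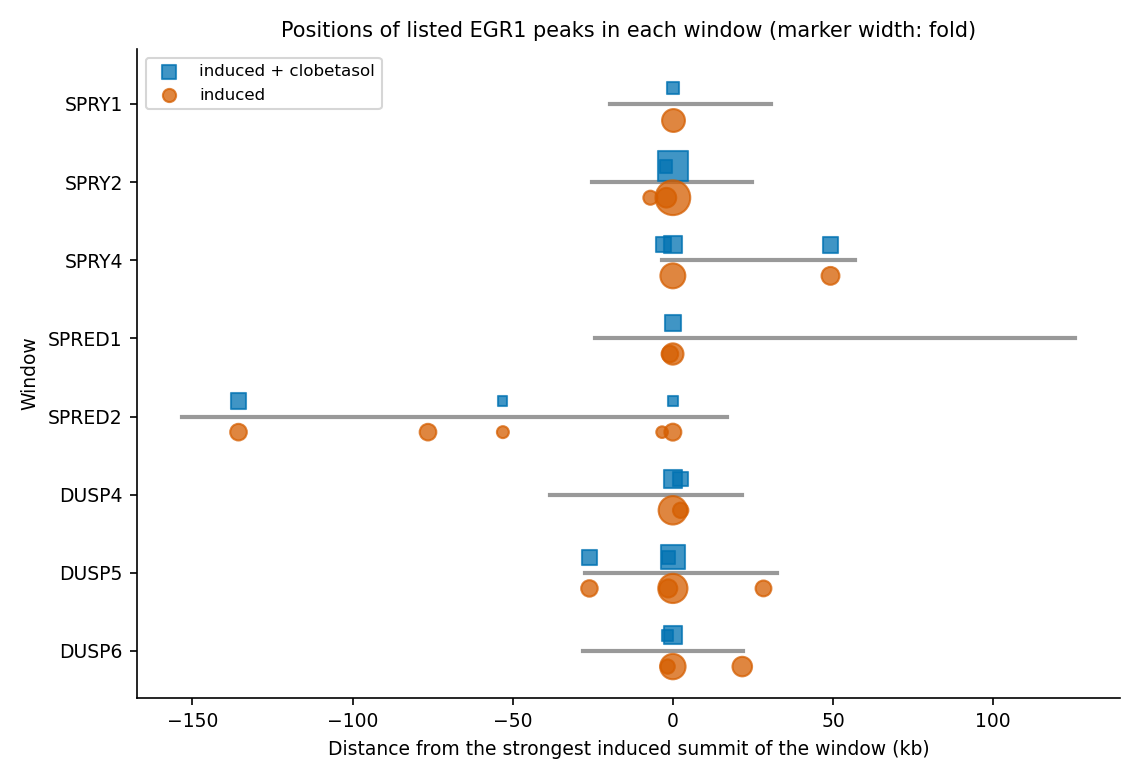
Position of each listed peak in the 8 windows, as the distance in kb from the strongest induced summit of the window: squares above each line for induced cells with clobetasol, circles below it for induced cells, with marker width in proportion to the fold, and the grey line for the extent of the window. Peaks of DUSP4 and those of SPRY2 lay within 2437 and 7015 bp of the strongest summit, whereas those of SPRED2 spread over 135596 bp.

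The SPRED windows were the widest and held several weak sites. SPRED2 had 3 peaks with clobetasol and 5 without it over 170 kb, the most induced peaks of the 8 windows. SPRED1 and SPRED2 encode membrane-associated relatives of Sprouty that act on RAS with neurofibromin. Site e of SPRED2, chr2:65662879-65663954, had the highest induced q of that window. It had 83 fragments with clobetasol (68.3 depth-scaled), 107 in induced cells and a control level of 28.7. The ratio was 0.639 (0.473 to 0.859), and the fold was 2.22 with clobetasol and 3.64 without it. The listed peak was 518 bp wide with clobetasol and 1076 bp wide without it.

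Site c of SPRED2, chr2:65610065-65610402, had the highest control level of that window. It had 143 fragments with clobetasol (118 depth-scaled) and 153 in induced cells over a control level of 59.0, which was 9.10 times the floor of its list. Its folds were low, 1.98 with clobetasol and 2.57 without it, and its ratio was 0.769 (0.608 to 0.973). By q in the clobetasol list, this site and not site e was the strongest of the window. In the other 7 windows the strongest site was the same in both lists.

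The remaining SPRED2 sites were weaker. Site a, chr2:65527445-65527804, had 46 fragments with clobetasol (37.9 depth-scaled), 38 in induced cells and a control level of 9.93. Its ratio of 0.996 (0.634 to 1.57) was the highest of the 16. Site b, chr2:65586643-65587099, had the same 38 fragments and the same fold of 3.57 as site a in induced cells but no clobetasol peak. Equal induced counts thus went with a clobetasol peak at site a and with none at site b. The clobetasol fragments at site b are not known. Site d, chr2:65657812-65660030, was the widest induced peak of the windows at 2219 bp, with 62 fragments over a control level of 24.3, a fold of 2.49 and no clobetasol peak.

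In the SPRED1 window both induced sites lay within 1 kb of each other. Site b, chr15:38543962-38545443, was broad, 1384 bp wide with clobetasol and 1482 bp without it. It had 79 fragments with clobetasol (65.0 depth-scaled), 93 in induced cells and a control level of 19.6. The ratio was 0.699 (0.511 to 0.954), with folds of 3.25 with clobetasol and 4.56 without it. Site a, chr15:38543378-38543645, lay 929 bp away and had 34 fragments, a fold of 3.56 and no clobetasol peak. No other peak of either list had its summit in the 150 kb of this window.

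The DUSP windows each held a strong site with a weaker one at most 2437 bp from it. DUSP5 encodes a nuclear phosphatase specific for ERK. Its site c, chr10:112257247-112257726, was the second strongest by q of the sites described here, at rank 69 in the clobetasol list and 76 in the induced list. It had 309 fragments with clobetasol (254 depth-scaled), 320 in induced cells and a control level of 50.2. The ratio was 0.795 (0.678 to 0.932), with folds of 5.06 with clobetasol and 6.27 without it. This ratio is close to that of the SPRY2 site, the only other with a fold over 5 in both lists.

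Site b of DUSP5, chr10:112255873-112256359, lay 1442 bp from site c. It had 80 fragments with clobetasol (65.9 depth-scaled), 95 in induced cells and a control level of 23.7, a ratio of 0.693 (0.508 to 0.943). Site a, chr10:112231357-112231627, had 158 fragments with clobetasol (130.1 depth-scaled), 141 in induced cells and a control level of 39.2. Its ratio of 0.922 (0.730 to 1.17) was the highest among the sites that reached an induced −log10 q of 20, and its interval includes 1. Site d, chr10:112285662-112285980, had 34 fragments, a fold of 3.40 and no clobetasol peak.

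DUSP6, the cytoplasmic ERK phosphatase, had its strongest site at chr12:89747807-89748359. This site b had 154 fragments with clobetasol (127 depth-scaled), 179 in induced cells and a control level of 32.0. The fold was 3.89 with clobetasol and 5.46 without it, and the ratio was 0.708 (0.567 to 0.883). Site a, chr12:89745520-89746626, lay 1629 bp away and had 57 fragments with clobetasol (46.9 depth-scaled), 58 in induced cells and a control level of 18.2. Its ratio was 0.809 (0.551 to 1.19), and its listed width was 286 bp with clobetasol and 1107 bp without it. Site c, chr12:89769245-89769915, had 36 fragments and a fold of 4.20 in induced cells, the highest fold of the 6 sites without a clobetasol peak.

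DUSP4 encodes a nuclear phosphatase that acts on ERK and other MAP kinases. Its site a, chr8:29208000-29208516, had 113 fragments with clobetasol (93.0 depth-scaled), 150 in induced cells and a control level of 23.7. The fold was 3.91 with clobetasol and 6.11 without it, and the ratio of 0.620 (0.481 to 0.797) was the lowest after that of SPRY1. Site b, chr8:29210500-29210917, lay 2437 bp away and had 38 fragments with clobetasol (31.3 depth-scaled), 35 in induced cells and a control level of 9.93. Its ratio was 0.894 (0.550 to 1.46), an interval wide enough to hold the ratio of site a.

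**Figure D3:**
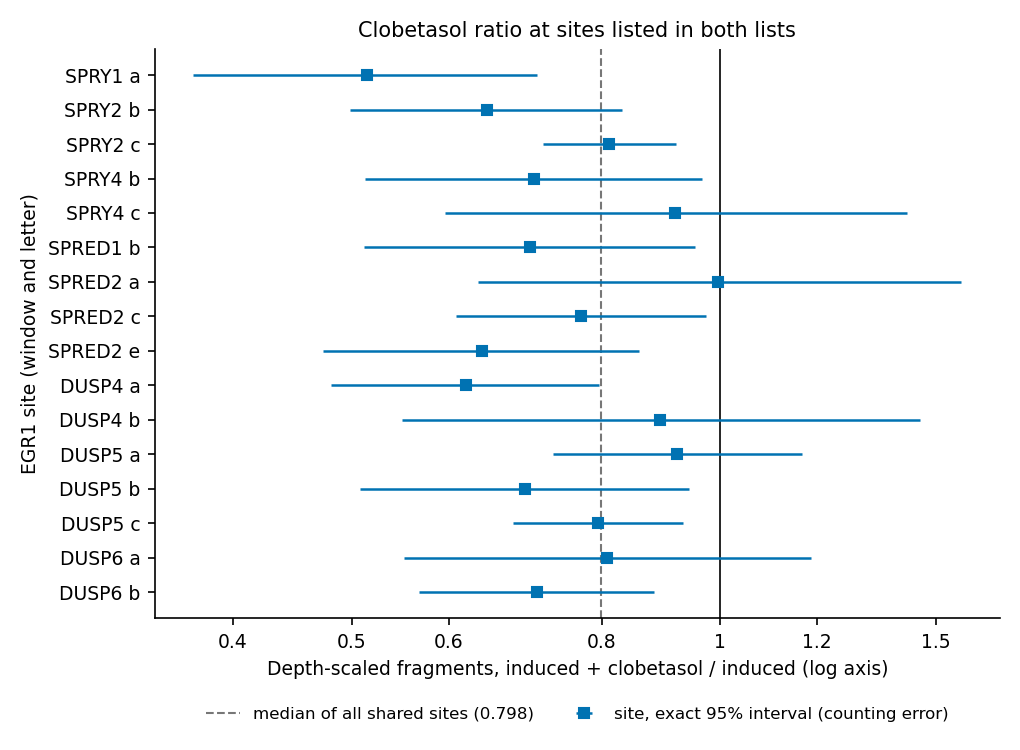
Ratio of depth-scaled fragments, induced cells with clobetasol over induced cells, at the 16 sites in both lists, on a log axis: squares are the ratios, bars the exact 95% intervals from counting error, the solid line is 1 and the dashed line the median of all 10429 shared sites, 0.798. All squares lie below 1, from 0.514 at SPRY1 to 0.996 at site a of SPRED2, and 14 of the 16 bars cross the dashed line. The other 2, of SPRY1 and of site a of DUSP4, lie below it. The shares of all shared sites whose intervals hold or lie below this median are not given here.

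The ratios of these windows lay within the range of the list as a whole, but that range is wide, 0.196 to 3.66. The median ratio over the 16 sites was 0.739 (lowest 0.514, highest 0.996), and over all 10429 shared sites it was 0.798 (interquartile range 0.706 to 0.911). Both medians cover only sites strong enough to be listed in each list. The interval lay below 1 at 11 of the 16 sites, against 35.7% of all shared sites, and above 1 at none, against 0.604%. All 11 reached an induced −log10 q of 20, and 57.9% of all shared sites of that strength had intervals below 1. At that strength the median ratio was 0.702 over 12 sites of these windows and 0.747 over 5800 sites of the whole list. The interval held 0.747 at 11 of the 12, and SPRY1 lay below it. The share of the whole list whose intervals hold this median is not given here. Among the 4 weaker shared sites no interval excluded 1. Of the 4629 weaker shared sites of the list, 371 had intervals below 1 and 48 above it. The median ratio was 0.906 over the 4 sites and 0.875 over the 4629. Members were set beside the list by values only, and no test of a difference between them was made.

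By family, the median ratio was 0.704 over 5 Sprouty sites, 0.734 over 4 SPRED sites and 0.795 over 7 DUSP sites. The ranges overlapped: 0.514 to 0.919, 0.639 to 0.996 and 0.620 to 0.922, so the families were not separated. The strongest induced site of each window had an interval below 1 in all 8 windows, with ratios from 0.514 to 0.812. All 8 reached an induced −log10 q of 20, where 57.9% of all shared sites had intervals below 1. Choosing sites by their induced q favours low ratios. The clobetasol list names the same strongest site in 7 of the 8 windows, which does not remove that bias. Summits of the 2 lists lay 1 to 49 bp apart at the 16 sites, with a median of 12 bp, against 11 bp over all shared sites.

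**Figure D4:**
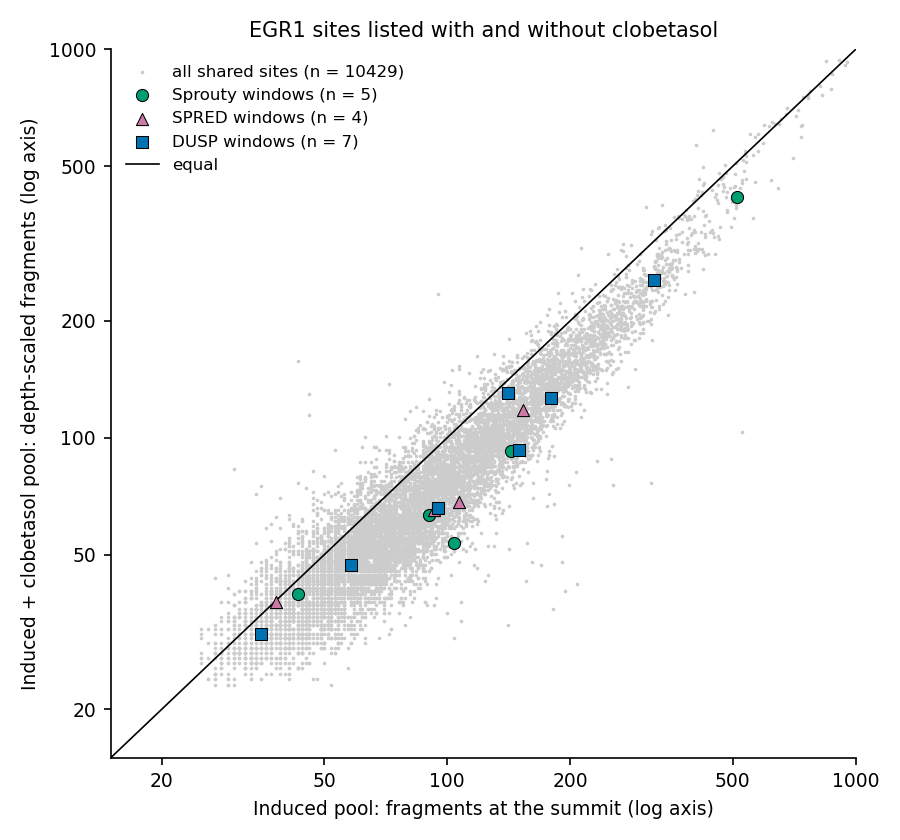
Fragments over the summit at all 10429 shared sites in grey and at the 16 sites of these windows in colour, on log axes: depth-scaled fragments of induced cells with clobetasol on the vertical axis and fragments of induced cells on the horizontal axis. The line marks equality, 90 sites lie outside the axes, and the 16 coloured points lie below the line within the cloud of all sites, with SPRY1 (53.5 against 104) near its lower border.

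Sites that lacked a clobetasol peak were the weak ones. Of the 22 induced sites, 16 had an overlapping clobetasol peak (72.7%, 95% Wilson interval 51.8 to 86.8), against 64.0% of the whole induced list. All 12 that reached a −log10 q of 20 were among them, where the list as a whole retained 94.5%. Of the 10 weaker sites 4 were retained, against 45.6% of weaker sites in the list. The 6 sites without a clobetasol peak had 32 to 62 fragments, folds from 2.49 to 4.20 and −log10 q from 5.25 to 10.2. For these 6 the clobetasol fragments are not known, since only listed peaks carry values. In the other direction, 16 of the 17 clobetasol peaks overlapped an induced peak, against 86.4% of that list.

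The level in proliferating cells was raised at about the same share of these sites as of the list. The control level was over 2 times the floor of the list at 14 of the 22 induced sites, against 66.3% of the list. It was over 5 times at 5 sites, against 17.9%, and at the floor at none. The median fold was 3.27 with clobetasol over 17 sites and 3.74 in induced cells over 22 sites, against 3.16 and 3.64 in the whole lists. Fold exceeded 5 at 2 of the clobetasol sites (3.79% of that list) and at 5 of the induced sites (13.1%), which were the strongest sites of SPRY2, SPRY4, DUSP4, DUSP5 and DUSP6. The 16 shared sites were narrower with clobetasol at 14, against 79.0% of all shared sites.

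The edges of the windows passed close to some peaks. Just inside were site a of SPRY4, 275 bp from the edge with 38 fragments with clobetasol, and site c of DUSP6, 192 bp from the edge with 36 fragments in induced cells. The nearest induced peak outside any window, chr8:29231434-29231726, lay 1601 bp beyond the DUSP4 window, with 74 fragments and a fold of 3.10. A peak at chr10:112295732-112296151, 5955 bp beyond the DUSP5 window, had folds of 5.80 with clobetasol and 7.53 without it, higher than any site inside that window. A peak 6736 bp beyond the SPRY4 window had 498 fragments and a fold of 2.57 in induced cells.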

How the data were processed

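EGR1 ChIP-seq libraries were processed by the authors, with BWA on hg19 and MACS2 2.1.1.20160309 among the tools that the submitters' processing notes list, beside cutadapt 1.15 and SAMtools 1.3.1. Settings for peak calling are not given in these sources. Per the peak names in the deposited lists, replicates 1, 2 and 3 of a treated group were pooled and compared with pooled proliferating libraries. In the labels, 2 of the 3 proliferating libraries, replicates 2 and 3, have library names with the identical tag Prolif2, so it is unclear whether they are distinct samples. The deposited lists give each peak a fold ratio over the control level, a −log10 p, a −log10 q and a score that the authors' caller derived from q. Peak numbers ran to 26677 in the clobetasol list and 52393 in the induced list, above the peaks listed.

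The fold is (pileup + 1)/(control level + 1) and the −log10 p a Poisson tail of the same quantities. Solving both gave a whole pileup that matched the deposited −log10 p within 0.002 for 99.8% of peaks in each list, and for all 17 clobetasol and 22 induced peaks described. Control levels stepped by 0.670 in the clobetasol list and 0.552 in the induced list, and the ratio of these steps, 1.21, was taken as the relative depth. The level was a whole number of steps, within 0.02 of a step, at 16 of the 17 clobetasol and 19 of the 22 induced peaks described, and proliferating fragments are given only there. Of 15 sites with proliferating fragments from both lists, the values differed by at most 7. The search for steps was run on data simulated from the same formulas with a preset step. Such a run cannot show that 1.21 is the true relative depth. Depth per library is not given in the files, and no replicate could be left out. Peaks were members by summit and shared by an overlap of at least 1 bp. Python 3.11.15 with scipy 1.17.1 was used.

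The members, windows and comparisons were chosen with earlier results of these data known. All 8 genes are named and every site is accounted for. Promoter sequences are RefSeq's, of GRCh38.p14. Promoters of DUSP4 and DUSP5 were not used here.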

Additional observations from a re-analysis of the deposited data

How the results depend on the processing

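Of 48 alternative values over 6 results, 33 stayed close and 15 moved. Counts of peaks were called close within 1.5 times, the shared share within its 95% Wilson interval, the median ratio within the relative width of the exact interval of the summed fragments, and median folds within the Poisson interval of the peak at the median. The alternatives with a depth ratio from the lowest control level and with 1 peak per window for folds were added after seeing the data. At all 16 shared sites the depth-scaled ratio was below 1, so its median over a part of them had to be too. This does not bind the alternatives that rescale the ratio or widen the windows. The median ratio of fragments, 0.739, stayed below 1 in all alternatives. It was 0.795 where both lists reached a −log10 q of 20 and 0.803 where both reached a fold of 3. Without depth scaling it was 0.897, and with the median of all shared sites set to 1 it was 0.925. For the excess over the control level it was 0.642, against 0.734 over all shared sites. With 1 window left out at a time it ranged from 0.708 to 0.769. With the bound of 20 on −log10 q, 5 clobetasol and 12 induced peaks were left in the windows, 41.7% of induced sites were retained, and the median fold was 3.91 with clobetasol and 4.73 without it. The clobetasol peaks numbered 9 with a bound of 10 on −log10 q and 11 with a bound of 3 on the fold, where 50% of induced sites were retained. With only the peak of highest q in each window, the median fold was 3.85 with clobetasol and 5.41 without it. Stricter bounds leave fewer peaks by construction. The shares of 41.7% and 50% count a site only where its clobetasol peak also met the bound. Shares of the whole list under these bounds are not given here. The 41.7% and 50% therefore cannot be set beside the 64.0% and 94.5% given for the list above. No paired analysis was possible because the peak lists used here give 1 pooled value per group. Depth limits the weaker sites: with 35 to 58 induced fragments, intervals of the ratio reached from 0.550 to 1.57.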
